A study of Homo sapiens with 8 samples.

Results

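The regions described here are 548 stretches of the genome that carried an H3K27ac peak in both DMSO libraries of human pancreatic progenitors (PPs), carried none in either library of I-BET151–treated PPs, and lay away from promoters. They were found among 15752 regions made by joining the peaks of all 4 H3K27ac libraries that shared at least 1 bp. Members were chosen by the presence and absence of peaks, so their level in DMSO and their absence under I-BET151 are given as a description, with no test. A region counted as distal when its summit, taken from its most significant peak, lay more than 3 kb from every annotated transcript start of every protein-coding gene (GENCODE release 44, hg38). Positions are 1-based on hg38 throughout, and a gene name beside a region is the protein-coding gene whose start is nearest, which is not evidence that the region acts on that gene.

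H3K27ac is an acetyl mark on a lysine of histone H3 that is found at active promoters and at active enhancers, the regulatory stretches that act on genes from a distance. BET proteins dock onto acetylated lysines through their bromodomains and help recruit the transcription machinery. I-BET151 is a small molecule that occupies those bromodomains. Pancreatic progenitors are cells defined by factors such as PDX1 and NKX6-1, and their enhancers are typically bound by FOXA, GATA, HNF and SOX proteins.

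The PPs of all groups were made from MEL1, a line of human embryonic stem cells, which the study's methods give as MEL1 INS GFP/W, with a GFP reporter at the insulin gene. Both groups were kept in EF6, a basal medium that holds the growth factors EGF (50 ng/ml) and bFGF (10 ng/ml) together with 616452 (10 μM), an inhibitor of TGFβ signalling. One group received the solvent DMSO and the other 1 μM I-BET151, in both cases for 7 days, and H3K27ac was measured by chromatin immunoprecipitation and sequencing (ChIP-seq) in 2 libraries per group, each called against an input library. The comparison asks where acetylation was no longer listed after the BET inhibitor. The cells are the product of 1 cell line differentiated in culture, so the groups are bulk mixtures in which fewer acetylated cells and less acetylation per cell cannot be told apart. The labels do not say whether the 2 libraries of a group came from separate cultures, and with 2 libraries against 2 the smallest two-sided exact permutation p is 0.33.

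The cell identity in the labels was checked at promoters. Of 10 progenitor markers, 9 had a peak within 3 kb of a start in all 4 libraries (among them PDX1, NKX6-1, SOX9, ONECUT1, GATA4, GATA6, FOXA2 and MNX1), and PTF1A had none in any. None of 5 endocrine and none of 5 mesenchymal markers had such a peak. Single markers of other cells were acetylated in all 4 libraries, namely LIN28A (pluripotent), APOA1 (hepatic) and CDX2 (intestinal), and VIL1 (intestinal) was listed in 3 libraries and missing from I-BET151 replicate 2. The depth, recovered from the values listed for the peaks, was 7.96 and 9.84 M ChIP reads (M, the SI prefix mega) in DMSO replicates 1 and 2 and 7.76 and 8.04 M in I-BET151 replicates 1 and 2. The lists held 13606, 14248, 12887 and 12312 peaks in the same order.

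Sequences around the summits of the leading members are shown first, because all later values refer to such stretches. Members were ordered by the worse of their 2 DMSO ranks by p-value. These are the 151 bases centred on the summit of the first 5, on the forward strand of hg38. Capitals would mark a match to the AP-1 (TGANTCA), TEAD (GGAATG) or KLF/SP (GGGCGGG) motif on either strand, and only the region near PHGR1 had one, a TEAD match.
TBC1D22A, chr22:46934760-46934910: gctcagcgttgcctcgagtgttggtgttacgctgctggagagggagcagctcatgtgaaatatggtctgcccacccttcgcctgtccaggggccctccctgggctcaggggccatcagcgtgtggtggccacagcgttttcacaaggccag
RASA3, chr13:114115998-114116148: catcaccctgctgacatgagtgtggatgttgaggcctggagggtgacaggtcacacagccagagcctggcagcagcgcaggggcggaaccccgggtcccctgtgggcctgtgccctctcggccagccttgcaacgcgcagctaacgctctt
FOXL1, chr16:86665154-86665304: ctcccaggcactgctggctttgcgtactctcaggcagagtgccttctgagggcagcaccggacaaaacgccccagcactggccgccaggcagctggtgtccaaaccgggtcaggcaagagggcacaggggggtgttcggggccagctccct
KLF16, chr19:1857604-1857754: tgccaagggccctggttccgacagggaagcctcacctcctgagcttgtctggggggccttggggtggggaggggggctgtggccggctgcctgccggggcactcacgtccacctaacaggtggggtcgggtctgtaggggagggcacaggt
PHGR1, chr15:40347323-40347473: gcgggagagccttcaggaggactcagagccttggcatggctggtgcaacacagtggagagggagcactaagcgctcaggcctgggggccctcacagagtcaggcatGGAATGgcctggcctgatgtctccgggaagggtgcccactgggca

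AP-1 is the FOS and JUN family, which responds to growth factor signalling, and TEAD proteins are the DNA-binding partners of YAP. The next 4 sequences show the first 4 members that had an AP-1 match inside the region and outside coding-gene exons, with the match in capitals at the centre of 61 bases and any further match in the stretch, as near SH3GL1, also in capitals.
KLF16, chr19:1857433-1857493: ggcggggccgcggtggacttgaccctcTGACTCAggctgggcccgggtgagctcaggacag
KRT80, chr12:52147391-52147451: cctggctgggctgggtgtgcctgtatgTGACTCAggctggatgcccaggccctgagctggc
PLEKHA6, chr1:204331770-204331830: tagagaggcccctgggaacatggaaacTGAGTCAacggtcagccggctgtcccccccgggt
SH3GL1, chr19:4374741-4374801: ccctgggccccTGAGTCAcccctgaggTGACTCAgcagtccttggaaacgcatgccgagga
The following 4 show TEAD matches chosen in the same way.
PHGR1, chr15:40347402-40347462: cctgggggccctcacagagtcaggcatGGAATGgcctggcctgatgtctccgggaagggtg
SMOX, chr20:4136384-4136444: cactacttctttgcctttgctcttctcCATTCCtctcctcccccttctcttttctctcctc
KRT78, chr12:52872769-52872829: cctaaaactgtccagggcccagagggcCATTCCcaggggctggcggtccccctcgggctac
SH3TC1, chr4:8191266-8191326: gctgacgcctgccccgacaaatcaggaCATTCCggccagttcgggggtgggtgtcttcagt
The matches shown lay 64 to 232 bp from the summit for AP-1 and 27 to 178 bp for TEAD.

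Distal acetylation was missing after I-BET151 more often than promoter acetylation. Of 1994 distal regions listed in both DMSO libraries, 548 were listed in neither I-BET151 library (27.5%, 95% Wilson interval 25.6 to 29.5), 244 were missing from 1 of them (12.2%) and 1202 were listed in all 4 (60.3%). At promoters the share listed in neither was 7.66% (807 of 10533, interval 7.17 to 8.19), without matching the strength of distal and promoter peaks. Over all 3327 distal regions the lost share was 16.5%, and over all 15752 regions 1355 were lost, which is 8.6%. Intervals on shares of regions cover counting error only, since regions are not replicates. The 1202 distal regions listed in all 4 libraries, called shared distal regions below, are the set the lost ones are compared with.

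The lost distal regions were among the weaker distal peaks of untreated PPs. Their median fold enrichment over input at the summit was 5.99 in DMSO replicate 1 and 6.37 in replicate 2, against 6.79 and 7.11 for shared distal regions. Their median −log10 q was 12.6 and 12.4, against 28.0 and 26.9. They were also narrower, with a median width of 395 bp against 649 bp. In lists ordered from strongest to weakest, the median lost region stood 78.5% and 77.5% of the way down, and the median shared region 51.2% and 50.9%. Only 19 of the 548 stood in the upper 50% of both DMSO lists and 0 in the upper 25% of both.

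The rule required these regions to be listed in both DMSO libraries, so how close their 2 values lay is a description only. Over the members, the Spearman correlation of the 2 folds was 0.62. The 2 folds lay within 1.5 times of each other for 379 members (69.2%) and more than 2 times apart for 47, and the log2 ratio of replicate 2 to replicate 1 averaged 0.03 ± 0.60 (SD over members). Reads at the summit per M ChIP reads (RPM) were closer, with a log2 ratio of −0.06 ± 0.21 (SD, n = 528 members with a read number in both). The median summit held 82 reads in replicate 1 and 97 in replicate 2, or 10.3 and 9.86 RPM. The plot of the folds in the 2 libraries shows lost regions scattered along the diagonal inside the cloud of shared ones.

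**Figure D1:**
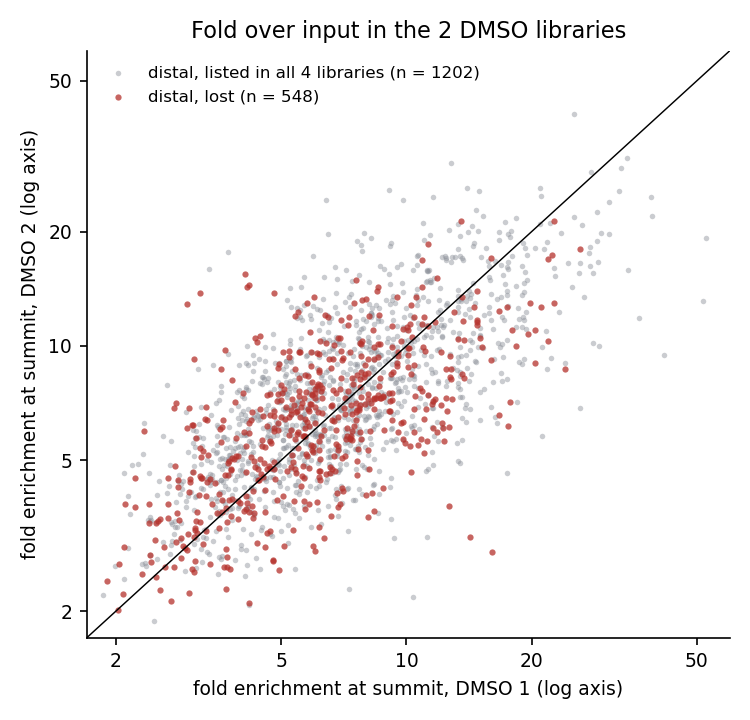
Fold enrichment over input at the summit in DMSO replicate 1 (x) and DMSO replicate 2 (y), both on log axes, for 548 lost distal regions (red) and 1202 distal regions listed in all 4 libraries (grey); the line marks equal values. Lost regions follow the line with medians of 5.99 and 6.37 and reach at most 26.2 and 21.4.

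Absence from a list is not absence of acetylation, so each member was set against the number of reads that the I-BET151 lists would have required. This listing floor is the read number at which a summit with the local input level seen in DMSO, carried over to the I-BET151 library, reaches the weakest p-value of that list. It had a median of 34 reads in I-BET151 replicate 1 and 37 in replicate 2, or 4.38 and 4.60 RPM. The mean DMSO level was 2.08 times the stricter floor in the median (range 0.996 to 6.16). It was at least 1.5 times the floor for 479 members (87.4%), at least 2 times for 303 (55.3%) and at least 3 times for 70 (12.8%). For a member near the median, a fall to less than the DMSO level divided by 2.08 is therefore enough to leave the list with the stricter floor. Against the lower floor of the pair the median was 2.23 times, so a fall past that level leaves both lists, and complete loss cannot be told apart from such a fall. The level rests on a single DMSO library for 20 members, whose read number was not resolved in the other. The peak caller also requires a minimum length, which the floor does not include.

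The same floor gave the error of a missing peak between replicates. Distal regions in DMSO replicate 1 that stood at least 3 times above the floor of DMSO replicate 2 were missing there in 4.23% of cases (37 of 874). At the same height over their own floors, 17.5% (144 of 823) were missing from I-BET151 replicate 1 and 22.1% (171 of 774) from replicate 2. Starting from DMSO replicate 2, 1.22% (9 of 736) were missing from DMSO replicate 1, against 16.5% and 20.2% for the I-BET151 libraries. Among weaker regions, 2 to 3 times above the floor, 17.3% and 13.7% were missing between DMSO libraries, and 39.7 to 48.2% from an I-BET151 library. Between 1 and 1.5 times the floor, 37.7% and 45.4% were already missing between the DMSO libraries. A single missing peak near the floor was thus common between replicates of the same group.

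**Figure D2:**
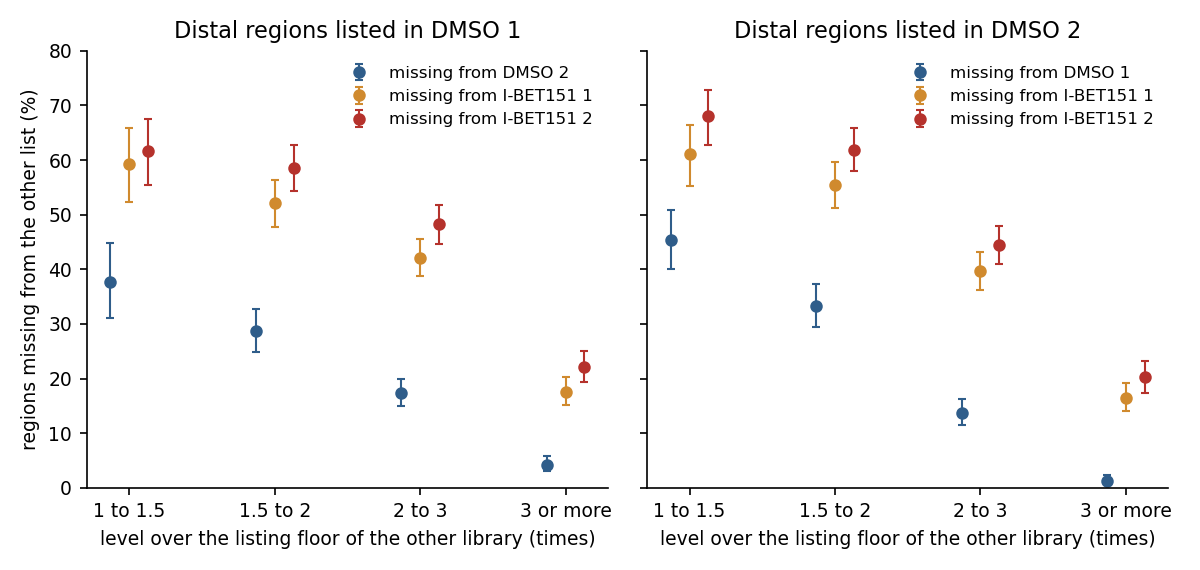
Percentage of distal regions listed in DMSO replicate 1 (left) or replicate 2 (right) that were missing from the list of each other library (y), by how many times their RPM exceeded that library's listing floor (x). Bars are 95% Wilson intervals; at 3 times or more, 4.23% and 1.22% were missing from the other DMSO library and 16.5 to 22.1% from an I-BET151 library.

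The strongest member lay in an intron of TBC1D22A, a gene of a family of Rab GTPase-activating proteins (chr22:46934603-46935031, 160908 bp from the nearest start). Its fold was 22.7 in DMSO replicate 1 and 21.4 in replicate 2, with −log10 q of 52.9 and 44.8. The floor was 16 and 19 reads in the I-BET151 libraries against 116 reads in DMSO replicate 1, which put it 6.16 times above the floor, the highest of all members. The read number in DMSO replicate 2 was not resolved, so this level rests on replicate 1 alone. The second lay in an intron of RASA3, a Ras GTPase-activating protein (chr13:114115867-114116305). It held 174 and 215 reads in the DMSO libraries, or 21.9 RPM in each, with folds of 11.2 and 18.5, and its floors were 31 and 34 reads. The third lay near FOXL1, a forkhead factor of the gut mesenchyme, 86680 bp from the start (chr16:86665041-86665448), with folds of 13.5 and 21.4. These 3 regions stood 5.17 to 6.16 times above the floor.

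The region nearest to PHGR1, a gene expressed in intestinal epithelium, lay 3635 bp from its start (chr15:40347146-40348087) and had folds of 26.2 and 18.0. The promoter region of PHGR1 was itself lost. Another lost region lay 144 bp from the member and may be that promoter region, so the 2 losses may not be separate. The region nearest to AHSG, which encodes the plasma protein fetuin-A, had the highest −log10 q of any member in DMSO replicate 1, 68.1, and 37.8 in replicate 2 (chr3:186599489-186599963). AHSG had no region at its promoter in any library. The region nearest to ANPEP, an aminopeptidase of the brush border, had folds of 8.59 and 12.1 (chr15:89784573-89785367).

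An intron of LAMA5, the α5 chain of basement membrane laminins, held the member with the most reads, 246 and 275 (chr20:62360818-62362781, folds 5.93 and 7.44). Adjacent regions 38491 and 37580 bp from KRT80, a keratin, had folds of 6.51 and 9.24 (chr12:52146527-52147712) and of 8.11 and 12.0 (chr12:52147957-52149051). A region 23873 bp from KRT78, another keratin, had folds of 19.6 and 10.8. The strongest region near SMAD7, the inhibitory SMAD of TGFβ signalling, had folds of 8.47 and 7.30 and −log10 q of 42.7 and 32.5 (chr18:49020712-49022014). The rest of the first 20 lay nearest to KLF16, NTMT1, SLC29A3 (2 regions), SMOX, LY6E, ZNF32, TNIP2 and SIK1. Over the 20, folds ran from 5.93 to 26.2 in DMSO replicate 1 and from 7.30 to 21.4 in replicate 2, and levels were 3.24 to 6.16 times the floor. The promoter of the nearest gene was listed in all 4 libraries for 11 of them, lost for 2 (RASA3 and PHGR1) and without a region for 7.

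The selection has 2 edges. Just inside the distance limit lay regions 3007 bp from CRIM1, 3039 bp from CMIP and 3047 bp from USP3, with folds of 7.11 and 7.28, 7.69 and 6.79, and 6.83 and 6.50. Just outside it lay lost regions 2977 bp from PCDH7, 2927 bp from PALM and 2920 bp from NCLN, with folds of 4.23 and 8.33, 2.93 and 3.22, and 7.82 and 8.08. Values on the 2 sides overlapped. By significance, the weakest members lay near SMAD7 (folds 3.00 and 2.23), CCDC187 (2.02 and 2.01) and KRT8 (1.90 and 2.40), and 67 of 548 had a −log10 q under 5 in at least 1 DMSO library.

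Position is a property the rule used only through the distance limit. The lost regions lay in introns of coding genes more often than shared distal regions did, 44.3% (243 of 548) against 31.4% (378 of 1202), a difference of 12.9 percentage points (95% Newcombe interval 7.99 to 17.8). They lay less often in a noncoding gene alone, 15.3% against 27.7% (difference −12.4 points, −16.2 to −8.30). Noncoding here means any annotated gene not labelled protein coding, which includes long noncoding RNAs, microRNAs and pseudogenes. Intergenic shares were 34.1% and 36.4% (−2.23 points, −6.97 to 2.63), and coding exons held 3.83% and 2.5% (1.34 points, −0.34 to 3.43). The widest gap was at the starts of noncoding genes in this sense. Such a start lay within 3 kb of 17.2% of lost and 37.3% of shared distal regions (difference −20.1 points, −24.1 to −15.8). A part of the shared set thus lay near annotated starts. Motif comparisons were repeated without those regions, and the difference in intron shares was not. Lost promoter regions had an intron share of 44.7%, close to that of the lost distal regions. Median distance to the nearest coding start was 14.6 kb for lost and 18.9 kb for shared regions.

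**Figure D3:**
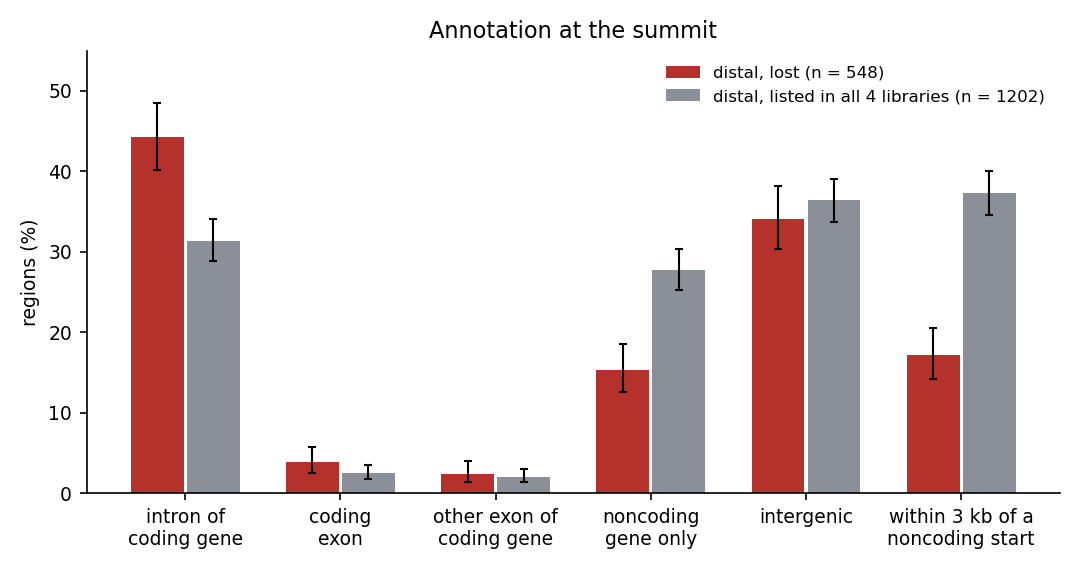
Percentage of 548 lost distal regions (red) and 1202 distal regions listed in all 4 libraries (grey) by the annotation at the summit and, in the last pair, with a noncoding gene start within 3 kb. Bars carry 95% Wilson intervals; introns held 44.3% of lost and 31.4% of shared regions, and noncoding starts lay near 17.2% and 37.3%.

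Base composition differed in the same comparison. Median GC content within 250 bp of the summit was 60.9% in lost and 63.5% in shared distal regions, and 65.7% in lost promoter regions. The mean difference between lost and shared distal regions was −3.11 points (95% interval −3.66 to −2.56).

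Motif content of the same windows differed for 5 of 18 motifs searched on both strands, each as exact letters. TEAD matches (GGAATG) were in 29.2% of lost regions (160) and 22.0% of shared distal regions (265), a difference of 7.15 points (2.76 to 11.7), against 17.6% of all 15752 regions. Within 5 classes of GC content the difference was 5.46 points (0.93 to 10.0). AP-1 matches (TGANTCA) were in 14.8% of lost (81) and 9.90% of shared regions (119), a difference of 4.88 points (1.60 to 8.46), against 6.67% of all regions. The AP-1 difference was 3.73 points (0.17 to 7.29) within GC classes and 3.94 (0.24 to 7.64) within classes of DMSO rank. It was uneven over the 5 rank classes. From strongest to weakest, lost and shared regions held AP-1 in 22.2% and 9.59% (9 lost regions only), 6.35% and 8.61%, 15.8% and 11.1%, 14.7% and 13.7%, and 16.8% and 7.03%. Once regions within 3 kb of any annotated start were removed from both sets, the AP-1 difference was 3.35 points with an interval from −0.51 to 7.47, which includes 0. RUNX matches (TGTGGTT) were in 6.93% and 4.58% (2.36 points, 0.09 to 5.01), and within GC classes the interval included 0 (1.04 points, −1.45 to 3.52).

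The KLF/SP and ETS motifs went the other way. KLF/SP matches (GGGCGGG), the GC box, were in 25.2% of lost and 41.0% of shared distal regions (−15.8 points, −20.3 to −11.1), and −6.73 points (−11.2 to −2.28) within GC classes, against 54.5% of all regions. ETS matches (CCGGAAG) were in 5.84% and 8.65% (−2.81 points, −5.22 to −0.10), with an interval that included 0 within GC classes (−1.41, −4.01 to 1.18). Motifs of pancreatic and endodermal factors, HNF6 among them, had intervals that included 0 over all regions of both sets. FOXA (TGTTTAC) was in 3.83% and 3.49%, GATA-factor letters (AGATAA) in 8.94% and 8.82%, SOX (CATTGT) in 12.0% and 13.1%, HNF4 (CAAAGTCCA) in 1.28% and 0.75%, and RBPJ (GTGGGAA), the DNA-binding partner of Notch, in 13.5% and 13.2%. The remaining 8 were HNF1 and CTCF, given by name alone, CRE (TGACGTCA), NFY (AGCCAAT), HNF6 (ATTGANT), homeobox (TAATTA), GRHL (AACCNGTT) and CEBP (TTGCNNAA). A single stretch can hold both an RBPJ and a TEAD match, since their letters overlap, and a CRE match never contains an AP-1 match. All 8 had intervals that included 0 over all regions, and within GC classes those of HNF6 (−2.27 points, −4.52 to −0.0111) and GRHL (−1.30 points, −2.53 to −0.0701) lay below 0. Distal regions missing from 1 I-BET151 library, which were left out of both sets, held TEAD matches in 27.9%, AP-1 matches in 15.2% and KLF/SP matches in 27.9%. Over all distal regions the shares were 24.3%, 11.8% and 32.6%. A match is a description of letters, not of a bound factor.

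**Figure D4:**
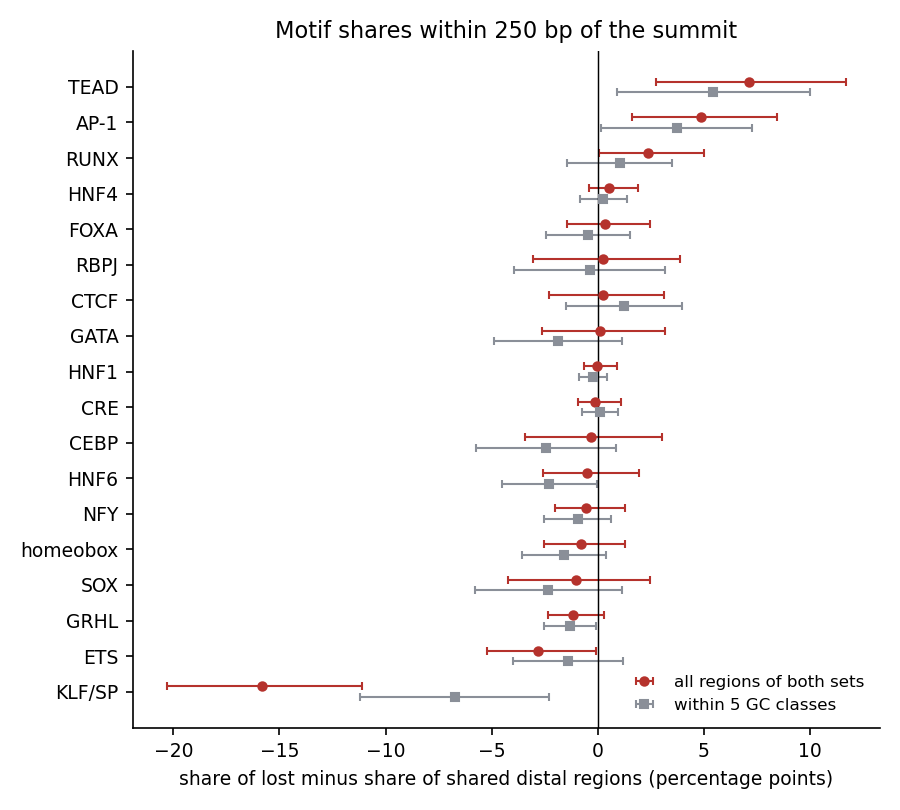
Difference between the share of lost distal regions and the share of shared distal regions with a motif match within 250 bp of the summit, in percentage points, for 18 motifs. Red circles compare all regions of both sets and grey squares compare within 5 GC classes, with 95% intervals; TEAD and AP-1 lie above 0 and KLF/SP lies below 0 on both.

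AP-1 matches were not centred on the summit. In the 81 lost regions that had one, the nearest match lay a median of 147 bp from the summit, and in 11 of them within 50 bp, against 140 bp and 15 of 119 in shared regions. The match lay inside the region in 58 of the 81. Lost regions with an AP-1 match had median folds of 5.41 and 6.08 and those without 6.09 and 6.41. The first 3 with a match lay near TBC1D22A, KLF16 and KRT80, and near TBC1D22A the match fell beyond the end of the region. For TEAD the first 3 lay near PHGR1, SMOX and TNIP2 (folds of 26.2 and 18.0, 22.4 and 17.4, and 20.4 and 11), and 123 of 160 had the match inside the region. For RUNX they lay near KRT78, SLC12A7 and COL4A1, for ETS near NTMT1, PLEKHA2 and TECPR2, and for KLF/SP near KLF16, ANPEP and TTYH3. Windows were not all separate stretches, since 49 members lay within 500 bp of another member.

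Some lost regions had lost neighbours. Another lost region, distal or at a promoter, was within 10 kb of 164 lost distal regions (29.9%), against 9.24% of shared distal regions (111). A region listed in all 4 libraries was within 10 kb of 26.8% (147) and within 50 kb of 65.3% (358) of the lost ones, against 44.9% (540) and 74.3% (893) of the shared ones. Any I-BET151 peak lay within 1 kb of 8.94% (49). Gained regions, listed in both I-BET151 libraries and neither DMSO library, were within 10 kb of 0.91% (5), against 5.66% (68). The rule used this contrast, so these shares are descriptions.

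Peak coverage around the lost regions was also lower under I-BET151, with the regions themselves left out. These windows still hold the other lost regions, which by the rule have peaks in DMSO and none under I-BET151, so part of the difference is fixed by the rule. Within 10 kb to either side, peaks covered a mean of 0.694 and 0.681 kb in DMSO replicates 1 and 2 and 0.363 and 0.304 kb in I-BET151 replicates 1 and 2, so I-BET151 coverage was 48.5% of DMSO coverage. Around shared distal regions the same 4 values were 1.02, 0.995, 1.06 and 0.950 kb, or 99.7%. Within 50 kb the ratio was 68.6% for lost and 94.8% for shared, and within 100 kb it was 73.8% and 93.2%. Counting only peaks of regions listed in all 4 libraries, a choice that keeps regions known to have I-BET151 peaks and was made after seeing the data, the ratio around lost regions was 82.4% within 10 kb, 89.2% within 50 kb and 91.0% within 100 kb. Around shared regions it was 103%, 100% and 98.7%. At 10 kb, both I-BET151 libraries lay below both DMSO libraries around 228 of 548 lost regions and above both around 4, and 236 had no other peak in that window. Around shared distal regions they lay below for 230 of 1202 and above for 163. Over the genome the peaks covered 9.91, 9.87, 9.19 and 8.62 Mb in the 4 libraries, so coverage was lower under I-BET151 over the whole genome as well.

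**Figure D5:**
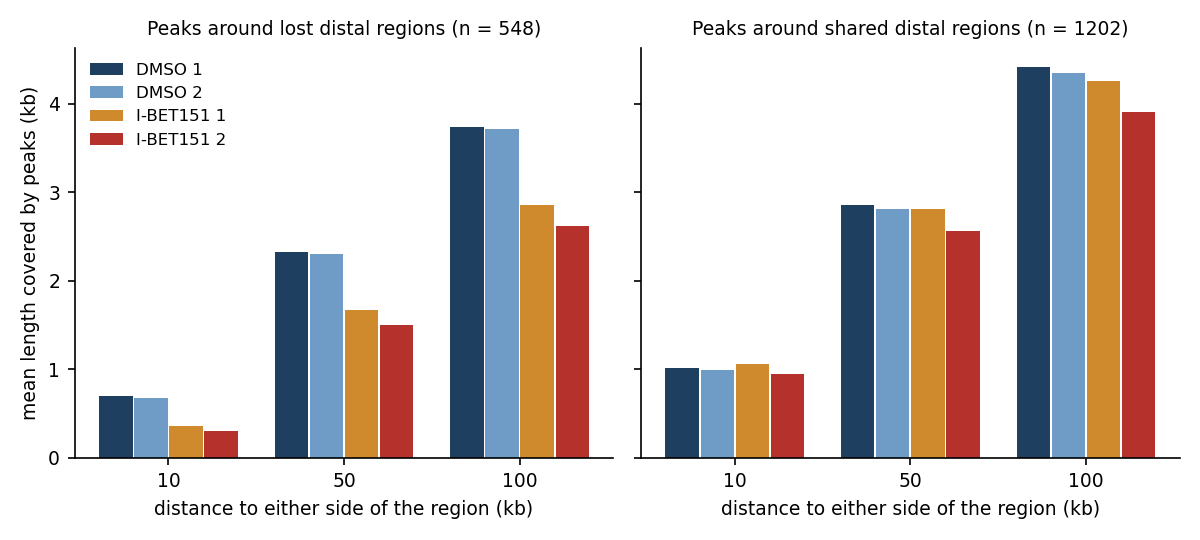
Mean length covered by peaks (y, kb) within 10, 50 and 100 kb to either side (x) of 548 lost distal regions (left) and 1202 shared distal regions (right), leaving out the region itself; 1 bar per library. Within 10 kb of lost regions the bars fall from 0.694 and 0.681 kb in DMSO to 0.363 and 0.304 kb in I-BET151, and around shared regions they stay between 0.950 and 1.06 kb.

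The promoter of the nearest gene was mostly kept. It was listed in all 4 libraries for 347 lost distal regions (63.3%) and 880 shared ones (73.2%). It was lost for 40 (7.30%) and 20 (1.66%). Of nearest promoters listed in both DMSO libraries, these were 9.93% of 403 (interval 7.37 to 13.2) and 2.17% of 921 (1.41 to 3.33). Over all promoter regions listed in both DMSO libraries the lost share was 7.66% (807 of 10533). The value for lost distal regions was thus near the general share, and that for shared ones was below it. It had no region for 130 (23.7%) and 234 (19.5%).

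When members within 50 kb of each other were chained, 350 stood alone, 65 loci held 2, 14 held 3, 4 held 4 and 2 held 5. One of the loci with 5 ran over 23.9 kb of LAMA5 and RPS21 (chr20:62354839-62378771), with folds of 2.53 to 5.93 in DMSO replicate 1 and 2.62 to 7.44 in replicate 2, and 1 region listed in all 4 libraries stood inside it. The other ran over 104 kb from CXXC5, a zinc finger regulator of WNT signalling, to PSD2 (chr5:139644122-139748052), with folds of 3.79 to 6.41 and 3.50 to 5.67, and 10 regions listed in all 4 libraries lay among its members.

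The loci with 4 members included RASA3, where all 4 regions in the 54.5 kb span were lost (chr13:114065219-114119687). Their folds were 4.90, 10.0, 10.3 and 11.2 in DMSO replicate 1, and the RASA3 promoter region was lost as well. The locus nearest to USP12, a deubiquitinase, lay 115468 to 137034 bp from its start, and held 4 lost regions and 1 listed in all 4 libraries (folds 7.57 to 10.9 and 7.07 to 16.8). A further locus of 4 lay nearest to ZNF703. Members had 426 different nearest genes, and GSE1 had the most, 6, all in its introns, beside 6 shared distal regions.

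Gene groups of pancreatic development, neighbouring lineages and signalling were then counted. For comparison, 1432 of 20007 protein-coding genes (7.16%) had a start within 100 kb of a lost distal region and 2563 (12.8%) within 100 kb of a shared one. The lists were assembled with earlier results of these data known, genes in one neighbourhood share regions, and acetylated genes have more distal regions of both kinds, so the counts are descriptions. They also depend on the window. Within 50 kb 832 coding genes (4.16%) had a lost region and within 200 kb 2504 (12.5%). Between 100 and 50 kb the number of genes with a lost region went from 7 to 3 for Notch, 11 to 5 for epithelial structure, 4 to 2 for liver, 4 to 2 for Hippo and WNT, and 2 to 1 for progenitor factors. At 200 kb it was 7 in place of 4 for TGFβ and BMP.

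Of 18 pancreatic progenitor factors, 2 had a lost distal region within 100 kb and 11 had a shared one. Those 2 were PDX1, with 1 lost and 4 shared regions, and HNF4A, the nuclear receptor of hepatic and pancreatic epithelium, with 2 lost and 0 shared. The regions within 100 kb of PDX1 all lay nearer to the start of another gene. The HNF4A regions had folds of 6.27 and 7.29 in an intron (chr20:44412342-44412898) and of 10.4 and 6.83 at a coding exon (chr20:44418331-44418642), and the HNF4A promoter was listed in all 4 libraries. SOX9, NKX6-1, ONECUT1, GATA4, GATA6, FOXA1, FOXA2, MNX1 and MEIS1 had shared distal regions within 100 kb and no lost one. As nearest genes, the 18 factors accounted for 2 lost (0.36%) and 17 shared regions (1.41%), a difference of −1.05 points (−1.93 to 0.04).

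Of 23 Notch pathway genes, 7 had a lost region within 100 kb and 11 a shared one. The lost one nearest to a Notch gene lay 46204 bp from HES1, the main transcriptional target of Notch, with folds of 8.52 and 9.34 (chr3:194089700-194090056), where 6 shared distal regions were nearest to the same gene. Of 20 endocrine lineage genes, 1 had a lost region within 100 kb (SST) and 1 had a shared one.

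Epithelial structure genes had more lost regions nearby than coding genes in general, at 11 of 30 (36.7%), and a similar number had shared ones (10 of 30). They included the adjoining KRT8 and KRT18 (3 regions each), KRT7, ELF3, the neighbours CLDN3 and CLDN4, CDH1, GRHL2, EPCAM, and S100A10 with S100A11. The region near CLDN4, a tight junction protein, had folds of 6.23 and 7.61, that near S100A10 10.4 and 5.94, that near EPCAM 4.78 and 2.72, and that near KRT8 1.90 and 2.40. Within 50 kb 5 of 30 genes had a lost region (16.7%) and 8 a shared one, against 4.16% and 7.43% of all coding genes.

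Of 20 intestinal genes 4 had a lost region within 100 kb and 7 a shared one, and of 26 liver and plasma protein genes 4 and 2. Besides PHGR1 and AHSG, the nearest members were those near MUC2, the secreted mucin (folds 5.83 and 4.77), and ISX, an intestinal homeobox factor (5.93 and 5.32). FETUB and HRG share the region near AHSG, and CEBPA, a hepatic bZIP factor, had 4 lost and 6 shared regions within 100 kb. As the nearest gene, CEBPA had 0 lost and 6 shared regions.

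Of 29 mesenchymal and matrix genes 5 had a lost region within 100 kb and 3 a shared one. COL1A1 had 2 members, and the stronger had folds of 10.1 and 8.77, while the COL1A1 promoter had no peak in any library. The region near COL4A1, a basement membrane collagen, had folds of 8.56 and 10.1, and that near COL18A1 3.29 and 4.02.

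AP-1 and immediate early genes had lost regions within 100 kb at 4 of 26 genes and shared ones at 14. JUN was nearest to 2 members, 1 at 138346 bp with folds of 16.0 and 9.18 and 1 at 31416 bp with 4.31 and 10.5. The region near FOS had folds of 8.08 and 3.55. That nearest to IER5L, 142943 bp away and so outside the 100 kb window, had 3.18 and 5.39. As nearest genes this list accounted for 4 lost (0.73%) and 17 shared regions (1.41%), with a difference of −0.68 points (−1.63 to 0.57).

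Of 32 EGF and FGF signalling genes, 8 had a lost region within 100 kb and 7 a shared one. EGFR, the receptor of the EGF in the medium, had 2 members in its introns, with folds of 8.60 and 7.82 (chr7:55177850-55178691) and of 6.85 and 3.75 (chr7:55133576-55133939), beside 1 shared region. The feedback phosphatase DUSP1 had a member with folds of 8.08 and 9.26, FGF19 one with 5.33 and 4.94, and SPRY2, a feedback inhibitor of receptor signalling, one 761199 bp away with 6.94 and 8.25.

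Of 29 TGFβ and BMP pathway genes, 4 had a lost region within 100 kb and 11 a shared one, and 10 members were nearest to such a gene. The inhibitory SMAD7 had 3 within 5.44 kb (chr18:49016571-49022014), with folds of 8.47 and 7.30, 12.8 and 9.39, and 3.00 and 2.23, and no region listed in all 4 libraries stood inside that stretch. SMAD6, the inhibitory SMAD of BMP signalling, had 3, of which the strongest had folds of 12.8 and 8.18. ID2, a BMP target, was nearest to 2, and the stronger, 200613 bp away, had folds of 7.22 and 11.4. All of these nearest promoters were listed in all 4 libraries. In share of regions, 1.82% of lost and 1.83% of shared regions were nearest to a gene of this list.

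Of 28 Hippo and WNT pathway genes 4 had lost and 4 shared regions within 100 kb. The region near AMOTL2 had folds of 5.33 and 3.27 and that in an intron of TEAD3 3.01 and 4.38. Small GTPase regulators, a list drawn up after such genes had been seen near the top changed regions of these data and so no independent evidence, were nearest to 18 lost (3.28%) and 19 shared regions (1.58%), a difference of 1.7 points (0.22 to 3.64). RASA3 was nearest to 4 of the lost and 0 of the shared regions. VAV2, a guanine exchange factor, was nearest to 4 lost and 7 shared regions. The first of the VAV2 regions had folds of 11.8 and 15.1 (chr9:133855428-133855776).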

How the data were processed

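H3K27ac ChIP-seq was analysed from the deposited peak lists of 4 libraries (2 DMSO, 2 I-BET151), and 4 input libraries entered only through those lists. According to the study's methods and processing notes, the authors aligned reads to hg38 with Bowtie2 2.2.5, removed duplicates and called peaks per library with MACS2 2.1.2 at its defaults, with each replicate on its own. In the deposited lists, each summit has a fold (a ratio over local input) and −log10 of a p-value and a q-value. A fixed q-value threshold leaves out weaker acetylation, and shallower libraries lose more. From these values, ChIP reads at the summit were recovered for 99.3 to 99.7% of peaks, since MACS2 adds a pseudocount of 1 and uses a Poisson p-value, and the procedure was tested on simulated data. Peaks on chromosomes 1 to 22, X and Y sharing 1 bp were merged with Python 3.11.15 and pandas 2.3.3, and annotated with GENCODE 44. Sequences were read from hg38 with pysam 0.24.0. Shares carry Wilson and differences of shares Newcombe 95% intervals (scipy 1.17.1). No test between groups was run, because the rule uses that contrast.

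Members, lists and motifs were chosen with earlier results of these data known. Named were the first 20 members by the worse DMSO rank, the 5 loci with most members, up to 4 members nearest to a gene of each list, the first 3 with each motif whose interval lay off 0, and regions at the distance limit. A few items this rule named are not reported here. PDX1, SST, CEBPA, ZNF703, GSE1 and other genes with counts only were named after their values were seen. Alternatives covered q-value limits, list length, merging, overlap, distance limits, start definitions, motif windows and leaving out each library.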

Additional observations from a re-analysis of the deposited data

How the results depend on the processing

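Of 214 recomputed values, 169 stayed within tolerance (an interval on the same side of 0, a count within 1.5 times, or a value within the replicate SD or Wilson interval), 25 moved further, 19 lost the interval's side and 1 reversed. The number of lost distal regions was 356 with lists cut to the same 12312 top-ranked peaks, 352 with a distance limit of 10 kb, and 611 to 881 when each library was left out in turn, the highest without DMSO replicate 1. Counting only starts of transcripts labelled protein coding, a choice added after seeing the data, gave 625. The share of distal DMSO regions lost was 23% with equal lists, 30.3% when peaks had to cover 50% of a region, 32.5% with starts of all annotated genes, and 30.6 to 36.4% with 1 library left out. The mean of the median DMSO folds, 6.18, was 7.28 at a minimum −log10 q of 10, 7.00 with equal lists and 5.79 to 6.29 with 1 library left out. The intron share was 36.1% at a 10 kb limit and 50.2% with all annotated starts.

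The AP-1 difference had an interval with 0 for 4 of 19 alternatives: 2.93 points with equal lists, 3.77 at 10 kb, 3.35 with all annotated starts and 1.04 in windows of 100 bp. The TEAD and KLF/SP differences kept intervals without 0 in 19 of 19, and the noncoding start difference in 14 of 14. Each of these counts includes the replicate block described below, which equals the main rule and could not give another value. The RUNX difference turned to −0.0216 in windows of 100 bp. Coverage under I-BET151 around lost regions was 48.5% of DMSO at 10 kb against 68.6% at 50 kb, and 89.2% at 50 kb with only peaks of regions listed in all 4 libraries, a choice added after seeing the data. The cause of these shifts was not tested.

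With the replicate number as a block (lost within both same-numbered pairs) the members were again 548, by construction. All other values under the block were fixed in the same way, and the counts of recomputed values and alternatives above include them. No other paired analysis was possible because the result comes from no test. The share of masked repeats was not computed, because the genome given here is not masked. Depth limits the lists: a region is missing once it falls below a median of 34 or 37 reads.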
